A study of Mus musculus with 6 samples.

Results

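The 10 genes described here are imprinted genes reported to be active in stem cells: H19, Igf2, Igf2r, Meg3, Dlk1, Cdkn1c, Grb10, Peg3, Ndn and Gnas. They were chosen by name, with earlier results of these data known, out of 27179 genes with read counts. Of the 10, 7 also have a row among the 12179 genes of the deposited normalized table. Meg3, Dlk1 and Peg3 do not, and their highest TPM (reads per gene length, scaled to a common total in each library) in any library was 0.832, so their values come from the counts alone. RNA-Seq had been performed on long-term hematopoietic stem cells (LT-HSCs, CD150+CD48- LSK cells) sorted from the bone marrow of C57BL/6 mice at 8 weeks of age, to ask what the loss of 1 copy of Foxm1, a forkhead transcription factor, changes in these cells. There were 3 libraries from wild-type (WT) mice and 3 from mice that the labels call Foxm1 heterozygous (Foxm1 HET), whose titles name 1 floxed Foxm1 allele and no Cre. The study uses both Tie2-Cre, which acts in endothelium and blood cells, and Mx1-Cre, and does not name the driver for these libraries. It elsewhere uses mice with 1 floxed allele and no Cre as controls. Foxm1 itself had 1182, 2615 and 2942 reads in WT replicates 1, 2 and 3 and 659, 5 and 742 reads in Foxm1 HET replicates 1, 2 and 3, so it was lower in each Foxm1 HET library than in each WT library.

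An imprinted gene is transcribed mainly from the copy inherited from 1 parent, and the copies are told apart by DNA methylation that was set in the egg or the sperm. Imprinted genes lie in clusters that share a control region and often hold a growth-promoting gene expressed from the father's copy, a growth-limiting gene expressed from the mother's copy, and a long noncoding RNA. In hematopoietic stem cells several of them, among them H19 with Igf2, the Dlk1 and Meg3 cluster, Cdkn1c and Ndn, are known for keeping the cells quiescent. All mice here were of a single inbred strain and the reads were not separated by allele, so the values give the total of both copies and carry no information on imprinting itself.

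The libraries held 14573002 to 25798509 counted reads, and Foxm1 HET replicate 2 was the shallowest. Only 4467 to 9894 genes, or 16.4% to 36.4% of those listed, had at least 10 reads in a library, with the fewest in Foxm1 HET replicate 2 and the most in Foxm1 HET replicate 1. The biological coefficient of variation estimated over all genes was 1.66. All 12 LT-HSC markers had reads, and their summed level was 2823 to 6470 CPM (reads scaled to library size) in WT and 4202 to 5628 CPM in Foxm1 HET. Neutrophil markers were also present, at 4745 to 13704 CPM in WT and 1383 to 7637 CPM in Foxm1 HET. The sort excludes CD48+ cells, and Cd48 had up to 6608 reads, in WT replicate 2. The methods speak of 3 pairs of mice but no source used here ties a library to a mouse, so p-values measure the spread between these libraries.

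Few of the 10 genes had reads throughout. Dlk1 had none in any library, 9 had at least 10 reads in some library, and 1, Gnas, had at least 10 reads in all 6. At least 10 reads were found for 4, 5 and 3 of the 10 genes in WT replicates 1, 2 and 3 and for 8, 2 and 6 in Foxm1 HET replicates 1, 2 and 3. Foxm1 HET replicates 1 and 3, with the most of these genes, also had the most genes detected over the whole table, and Foxm1 HET replicate 2 had the fewest of both. What the number of genes detected contributes to the counts below was not tested. At a level common to all libraries, 0.686 CPM, which is 10 reads in the shallowest of them, the counts were 4, 5 and 2 across WT, against 8, 2 and 5 across Foxm1 HET. Foxm1 HET replicate 1 had the highest CPM of the 6 libraries for 6 of the 9 genes with a read, against 23.2% of all genes with a read.

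**Figure D1:**
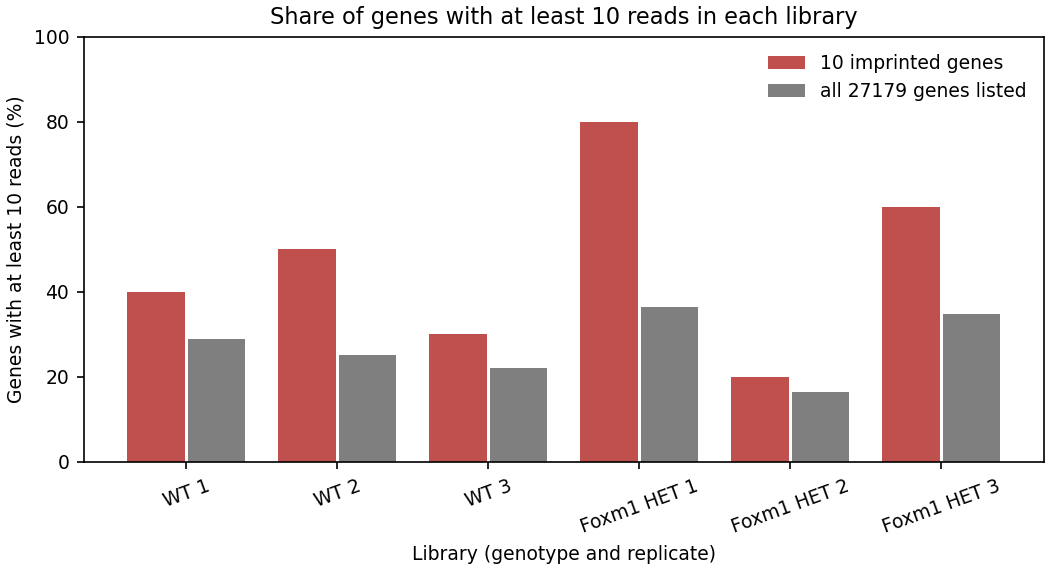
Bars give the share of genes with at least 10 reads (y axis, %) in each library (x axis), in red for the 10 imprinted genes and in grey for all 27179 genes listed. Both shares were lowest in Foxm1 HET replicate 2 and highest in Foxm1 HET replicate 1, where 8 of the 10 imprinted genes had at least 10 reads.

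**Figure D2:**
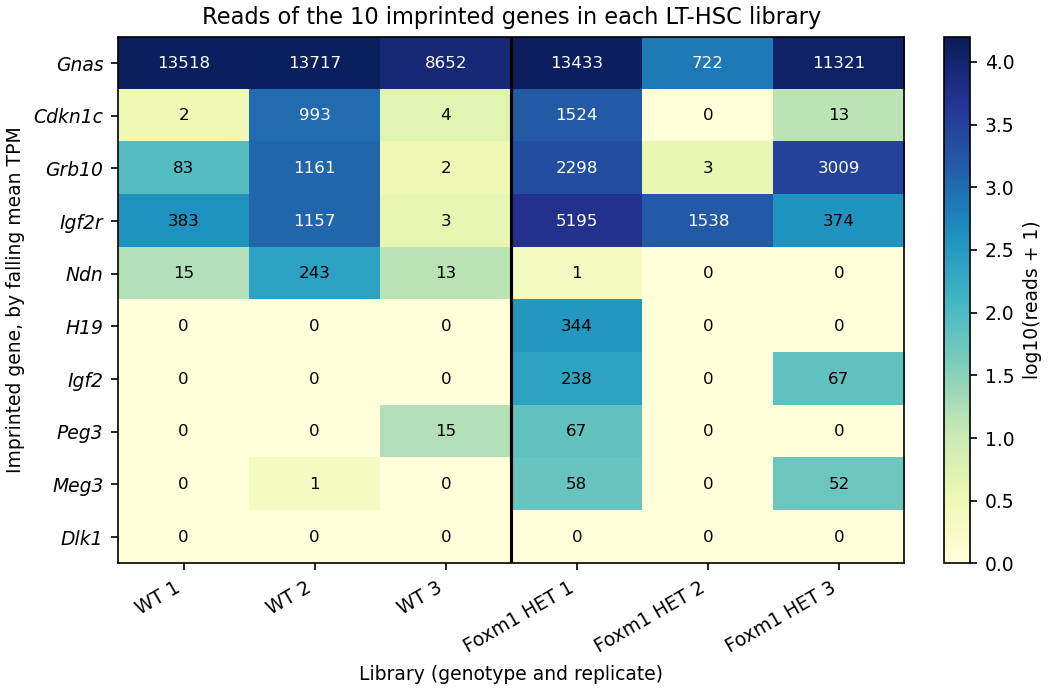
The number and shade of each cell give the reads (shade as log10 of reads + 1) of 1 imprinted gene (rows, by falling mean TPM) in 1 library (columns). Gnas was read in every library, Dlk1 in none, and Cdkn1c, for example, ran from 0 to 1524 reads within Foxm1 HET.

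Per length, the order of mean TPM over the 6 libraries was Gnas at 163, Cdkn1c at 19.5, Grb10 at 19.2, Igf2r at 15.9, Ndn at 2.77, H19 at 1.80, Igf2 at 1.01, Peg3 at 0.174, Meg3 at 0.125 and Dlk1 at 0. Gnas ranked 531 among the 13845 genes with a read. It had the highest TPM of the 10 in 5 of the 6 libraries, and Igf2r had the highest in Foxm1 HET replicate 2. The ranges over libraries overlapped in all 9 pairs of neighbours in this order. These ranges leave out that the genes were read in the same libraries, and within each library Gnas was above Cdkn1c. The order also rests on means: the median TPM was 0.406 for Cdkn1c, 12.2 for Grb10 and 8.87 for Igf2r. The summed level of the 10 genes was 697, 751 and 404 CPM in WT, against 910, 155 and 575 CPM in Foxm1 HET. Gnas made up 79.4% to 99.6% of their reads in WT but only 58.0%, 31.9% and 76.3% in Foxm1 HET replicates 1, 2 and 3.

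For the genotype comparison, 5 of the 10 genes (Igf2r, Cdkn1c, Grb10, Ndn and Gnas) had enough reads for edgeR's default filter and were tested among 8195 genes. None of the 5 had an adjusted p under 0.05, against 0.329% of all genes tested (27 genes). At an unadjusted p under 0.05 the count was 1 of 5, Ndn, against 6.03% of all genes tested in either direction and 2.59% of them lower in Foxm1 HET. Ndn passed the filter only through the WT group, so its place in this count and the next is no support for a difference. The genotypes did not overlap in TMM-scaled log2 CPM for 2 of 5, Ndn and Gnas, both lower in Foxm1 HET, against 8.68% of genes tested in either direction and 4.55% in that one. The median log2 fold change (Foxm1 HET over WT) was -0.13 over the 5 genes and -0.26 over all genes tested, and other scalings moved the latter to between -0.13 and 0.14. Relative to the median of all genes, the log2 fold changes of Ndn, Gnas, Cdkn1c, Grb10 and Igf2r were -7.75, -0.999, 0.13, 1.52 and 2.74. An exact permutation test of 3 libraries against 3 cannot give a two-sided p under 0.1.

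Ndn encodes necdin, a growth suppressor of the MAGE family that is expressed from the father's copy and holds hematopoietic stem cells in quiescence. It is a gene of 1 exon on chromosome 7 (GRCm38, 62348277 to 62349928, plus strand). It had 15, 243 and 13 reads in WT replicates 1, 2 and 3 and 1, 0 and 0 reads in Foxm1 HET replicates 1, 2 and 3. All 3 WT libraries were above all 3 Foxm1 HET libraries, WT replicate 2 stood far above the other WT libraries, and the gene passed the filter on low counts through the WT group alone. In log2 CPM the level averaged 0.96 ± 2.15 (SD, n = 3) in WT, against -3.48 ± 0.23 (SD, n = 3) for Foxm1 HET.

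The log2 fold change of Ndn was -8.01 (SE, standard error, 3.87). By edgeR's quasi-likelihood test it was past an unadjusted p of 0.05 but not past adjustment over all genes (Benjamini-Hochberg adjusted p = 0.773). Ndn passed the filter only through the WT group where it is high, so this p is no support for a difference. Without the filter its unadjusted edgeR p was 0.109. The two-sided exact permutation p was 0.1. Summed over each genotype, the CPM was 276 times higher in WT (95% interval 49.1 to 10944, for counting error only). Without WT replicate 2, the highest library, the log2 fold change was -5.60. Over all 6 libraries left out in turn it was -9.44 to -5.60 with adjusted p of 0.601 to 0.999, and whichever library was left out the unadjusted call was lost. In bulk libraries such as these, fewer cells that express a gene and less RNA per cell cannot be told apart. The genotypes stayed apart under each scaling in which the gene was tested (2.9% of genes were so by library size alone) and in the deposited normalized table. There its log2 values were 1.16, 3.61 and 2.28 in WT, against 0.15, 0.18 and 0.13 in Foxm1 HET. Of all genes with at least 10 reads in every WT library, 0.209% (8 of 3825) had at most 3 reads in each Foxm1 HET library. Among the 103 genes with at least 10 reads in every WT library and no more WT reads in all than Ndn, 0.971% were so, which is Ndn alone. This rule was set after the values of Ndn were seen and is a description of its place among other genes.

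The 250 bases just before the annotated start of Ndn (RefSeq, GRCm38.p6, chr7:62348027-62348276, plus strand) are shown because Ndn was the gene whose genotypes stayed apart most widely. The capitals mark its 5 CpG sites, the dinucleotides at which imprinted promoters can be methylated.
Ndn: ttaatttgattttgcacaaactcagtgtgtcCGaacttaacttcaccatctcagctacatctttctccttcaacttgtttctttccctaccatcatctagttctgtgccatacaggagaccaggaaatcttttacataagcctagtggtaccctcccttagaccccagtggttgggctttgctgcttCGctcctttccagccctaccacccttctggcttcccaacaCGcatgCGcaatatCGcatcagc

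Gnas, which encodes the stimulatory G protein alpha subunit that couples receptors to cAMP, was the most abundant of the 10. Its locus on chromosome 2 (GRCm38, 174284320 to 174346744, plus strand) also gives several imprinted transcripts from other starts, which the counts do not separate. It had 13518, 13717 and 8652 reads across WT, against 13433, 722 and 11321 reads across Foxm1 HET. Scaled to library size these were 673, 596 and 402 CPM in WT, against 528, 49.5 and 439 CPM in Foxm1 HET. Foxm1 HET replicate 2 was low, and the other 2 Foxm1 HET libraries lay inside the WT range.

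With TMM scaling the log2 CPM of Gnas averaged 9.19 ± 0.10 (SD, n = 3) in WT, against 7.78 ± 0.87 (SD, n = 3) for Foxm1 HET, and the genotypes did not overlap. With scaling to library size alone, and in the deposited normalized table, they did overlap. The fitted log2 difference, Foxm1 HET over WT, was -1.26 (SE 1.53, edgeR adjusted p = 0.998), and the value was -0.86 without Foxm1 HET replicate 2. It was negative in all 15 alternatives tried, from -1.52 to -0.66, and its adjusted p was at least 0.754 in each.

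The most downstream of the 4 annotated starts of Gnas with a sequence is shown by its 250 preceding bases (RefSeq, GRCm38.p6, chr2:174329756-174330005, plus strand) as a contrast with Ndn. It holds 29 CpG sites, in capitals, where the window of Ndn has 5.
Gnas: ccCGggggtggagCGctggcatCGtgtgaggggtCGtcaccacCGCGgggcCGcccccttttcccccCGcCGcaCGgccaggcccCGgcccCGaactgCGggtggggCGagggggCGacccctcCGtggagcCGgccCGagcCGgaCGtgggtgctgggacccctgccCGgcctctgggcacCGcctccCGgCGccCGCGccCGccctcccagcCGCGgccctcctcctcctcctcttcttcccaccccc
The 3 tested genes whose TMM-scaled log2 CPM followed that of Gnas most closely over the 6 libraries were Mtx2 (Pearson r = 0.994), Bag1 (r = 0.991) and Dpp9 (r = 0.989). All 3 had 1 or 2 reads in Foxm1 HET replicate 2, and the points share their scaling factors, so these correlations are given as a description. Among the 5 tested imprinted genes, the pair most alike was Ndn and Gnas (r = 0.743 over 6 libraries), followed by Cdkn1c and Grb10 (r = 0.684), and the pair least alike was Igf2r and Gnas (r = -0.502).

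**Figure D3:**
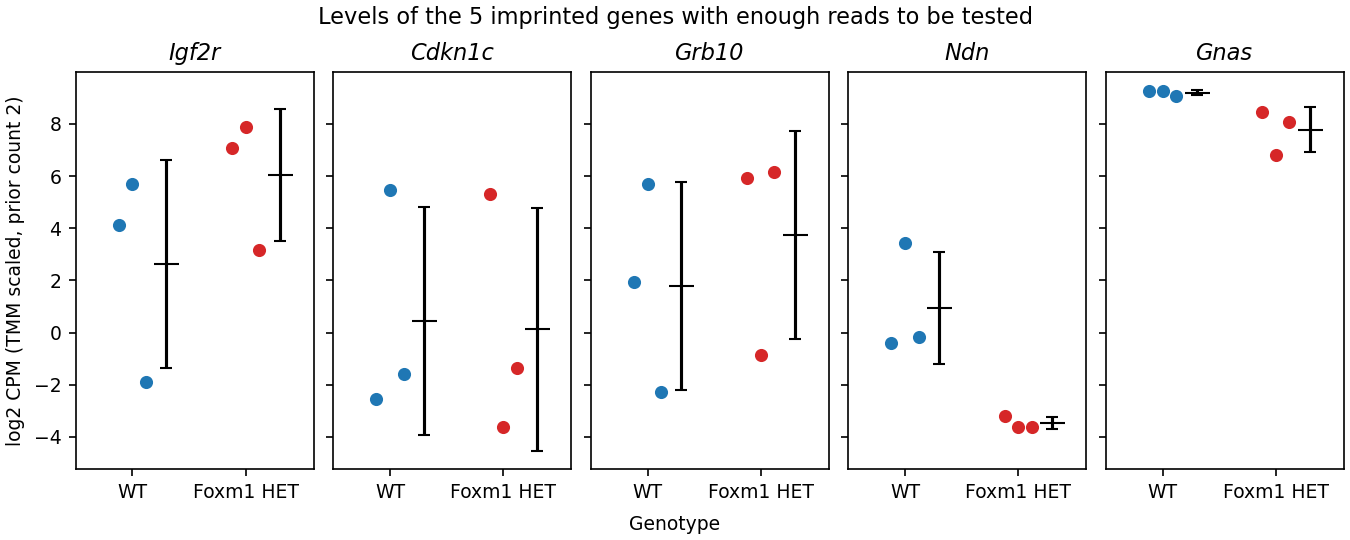
Each point is 1 library (blue WT, red Foxm1 HET) and the y axis is log2 CPM after TMM scaling with a prior count of 2, for the 5 imprinted genes tested. Bars give the mean and SD of 3 libraries per genotype. Ndn and Gnas show no overlap between genotypes, while Igf2r, Cdkn1c and Grb10 spread over a wide range in both.

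The ligand Igf2 and the noncoding RNA H19 share 1 control region on chromosome 7. Igf2, insulin-like growth factor 2, is expressed from the father's copy and promotes growth (GRCm38, 142650768 to 142661035, minus strand). It had 0 reads in each WT library and 238, 0 and 67 reads in Foxm1 HET replicates 1, 2 and 3. H19, expressed from the mother's copy and the host of a microRNA that lowers the IGF1 receptor (142575532 to 142578146, minus strand), had 344 reads in Foxm1 HET replicate 1 and 0 in the other 5 libraries. With reads summed over the group, Igf2 was at least 99.8-fold higher and H19 at least 113-fold higher in Foxm1 HET, taking 3 reads over the WT group as the limit that a count of 0 allows. These limits allow for counting error only and not for the spread between libraries. Foxm1 HET replicate 2 had 0 reads of both genes. Neither gene had enough libraries with reads to be tested with edgeR. The two-sided exact permutation p on log2 CPM, scaled to library size, was 0.4 for Igf2 and 1 for H19. A gene with at least 100 reads in 1 library and at most 3 in each of the other 5, as H19 had, was no rarity: 9.39% of genes with at least 100 reads in some library were like it.

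Igf2r, the mannose 6-phosphate receptor that takes IGF2 to the lysosome and so limits its action, is expressed from the mother's copy (chromosome 17, 12682406 to 12769706, minus strand, 48 exons). It had 383, 1157 and 3 reads across WT, against 5195, 1538 and 374 reads across Foxm1 HET. Foxm1 HET replicates 1 and 2 lay above every WT library, while Foxm1 HET replicate 3 lay inside the WT range. In TMM-scaled log2 CPM the level averaged 2.64 ± 3.999 (SD, n = 3) in WT, against 6.05 ± 2.53 (SD, n = 3) for Foxm1 HET. The fitted log2 difference, Foxm1 HET over WT, was 2.48 (SE 2.17, edgeR adjusted p = 0.985) and lay between 1.72 and 3.84 with a library left out. Of its exon bases, 9.22% also belong to an unnamed gene on the opposite strand, which had 0 reads, and no source used here says whether the counting used strand.

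Grb10, an adaptor that binds the insulin and IGF1 receptors and dampens their signal, is expressed from the mother's copy in most tissues (chromosome 11, 11930499 to 12037420, minus strand, 18 exons). It had 83, 1161 and 2 reads across WT, against 2298, 3 and 3009 reads across Foxm1 HET. Foxm1 HET replicates 1 and 3 were the highest of the 6 libraries, and Foxm1 HET replicate 2 was among the lowest. The fitted log2 difference, Foxm1 HET over WT, was 1.26 (SE 2.56, edgeR adjusted p = 0.998), and 0.64 to 4.47 with a library left out. Without Foxm1 HET replicate 2 the genotypes did not overlap, yet the unadjusted p was still above 0.05. The share of all genes for which this held was not counted, and with fewer libraries the genotypes stay apart more easily.

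The rest of the IGF and insulin pathway was read from a list of 33 other genes, of which 23 were tested. In Foxm1 HET 14 were higher and 9 lower, the median log2 fold change being 0.30, and 3 were higher at an unadjusted p under 0.05, against 3.44% of all genes in that direction. None passed after adjustment over all genes. Igf2bp3, an RNA-binding protein of Igf2 transcripts, had 4, 4 and 69 reads across WT, against 863, 7328 and 17 across Foxm1 HET (log2 fold change 7.95, SE 2.28, edgeR adjusted p = 0.0915). Irs2, the insulin receptor substrate, had 231, 9 and 12 reads across WT, against 2226, 2913 and 759 across Foxm1 HET, with no overlap between the genotypes (log2 fold change 5.50, edgeR adjusted p = 0.658). The third was Tsc2, a brake on mTOR, at 4.86 (edgeR adjusted p = 0.343). In the other direction Pik3cb, a catalytic subunit of PI3-kinase, had 2266, 143 and 1631 reads across WT, against 134, 1 and 1 across Foxm1 HET (log2 fold change -5.81, edgeR adjusted p = 0.844). Foxm1 HET replicate 2 carried the first 3 of these values: without it Igf2bp3 was at 2.97, Irs2 at 3.37 and Tsc2 at 1.05, none with an unadjusted p under 0.05. With DESeq2 the adjusted p was 0.0177 for Irs2 and 0.0414 for Pik3cb, and with upper-quartile scaling in edgeR that of Igf2bp3 was 0.0468. In no other setting tried did these 3 genes pass after adjustment: with limma-voom the adjusted p was 0.9995 for each. DESeq2 gave no p for Igf2bp3. Both of the passing settings also called more genes over the whole table, 194 with DESeq2 and 43 with upper-quartile scaling, against 27 in the main fit.

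Cdkn1c encodes p57, the Cip/Kip inhibitor of cyclin-dependent kinases that is expressed from the mother's copy and is required for HSC quiescence (chromosome 7, 143458339 to 143461050, minus strand, 4 exons). It had 2, 993 and 4 reads across WT, against 1524, 0 and 13 reads across Foxm1 HET. A single library of each genotype was high, WT replicate 2 and Foxm1 HET replicate 1, and the other 4 had 13 reads or fewer. The fitted log2 difference, Foxm1 HET over WT, was -0.13 (SE 2.82, edgeR adjusted p = 0.998). Leaving out either of those 2 libraries moved it most, to 6.24 without WT replicate 2 and to -6.30 without Foxm1 HET replicate 1. It was also positive when Foxm1 HET replicate 2 (0.51) or 3 (0.55) was left out. The other Cip/Kip inhibitors, Cdkn1b (p27) and Cdkn1a (p21), had log2 fold changes of -0.65 (SE 2.98) and 0.57 (SE 2.97), and none of the 3 had an unadjusted p under 0.05.

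Meg3, a long noncoding RNA expressed from the mother's copy, and Dlk1, a transmembrane protein of the Notch ligand family expressed from the father's copy, share a cluster on chromosome 12. Meg3 (109540996 to 109571729, plus strand) had 0, 1 and 0 reads across WT, against 58, 0 and 52 reads across Foxm1 HET. It was thus seen in the same 2 libraries as Igf2. The CPM over the group was 108 times higher in Foxm1 HET (95% interval 18.98 to 4303, for counting error only), and the two-sided exact permutation p was 0.4. Dlk1 (109452823 to 109463336, plus strand) was not detected at this depth, and a count of 0 allows up to 0.116 CPM in the deepest and 0.206 CPM in the shallowest library.

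H19, Igf2 and Meg3 are the 3 of the 10 genes with at most 3 reads in each WT library and at least 10 in a Foxm1 HET library. Of all genes with at least 10 reads in some library, 16.8% had that form, and 5.97% had the reverse. Bone marrow stroma and endothelium also express these genes. Of 10 markers of mesenchymal stroma, 7 (Lepr, Col1a1, Col1a2, Col3a1, Pdgfra, Lum and Dcn) were at 0 in every library. The summed level of the 10 was 0.0465 to 7.42 CPM in WT and 1.77, 28.3 and 86.2 CPM in Foxm1 HET replicates 1, 2 and 3. Of 6 endothelial markers 2 (Plvap and Lyve1) were at 0, and the sum was 0 to 14.1 CPM in WT and 29.4, 0 and 5.54 CPM in Foxm1 HET replicates 1, 2 and 3. The endothelial sum was thus highest in the library that held H19 and most of the Igf2 reads, Foxm1 HET replicate 1. There it came from Kdr (658 reads) and Flt4 (90 reads) alone, and Cdh5, Stab2, Plvap and Lyve1 had 0 reads. The stromal sum was carried by Cxcl12 (412 reads) in Foxm1 HET replicate 2 and by Pdgfrb (2222 reads) in Foxm1 HET replicate 3. What such cells contribute to these values was not tested.

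Peg3, a zinc finger protein expressed from the father's copy (chromosome 7, 6705960 to 6730419, minus strand), had 15 reads in WT replicate 3, 67 in Foxm1 HET replicate 1 and 0 in the other 4 libraries. Of its exon bases, 13.1% also belong to the antisense gene Peg3os, which had 0 reads. Peg3 was too low to be tested, and its two-sided exact permutation p was 1.

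**Figure D4:**
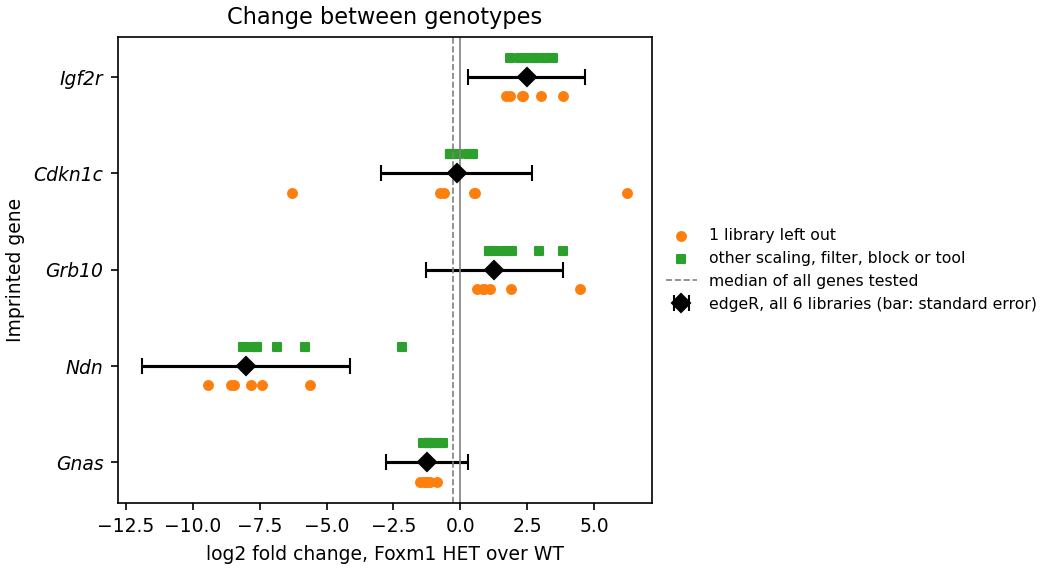
Diamonds give the log2 fold change (x axis, Foxm1 HET over WT) of the 5 tested imprinted genes with its standard error. Orange points leave out 1 library, green squares use another scaling, filter, block or tool, and the dashed line is the median of all genes tested at -0.26. Cdkn1c ran from -6.30 to 6.24 with single libraries left out, while Ndn and Gnas were below zero and Igf2r and Grb10 above zero throughout.

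The forkhead motif TGTTTAC, or its reverse complement GTAAACA, was searched in the promoters of the 10 genes, from 250 bases before to 50 bases after each annotated start. H19 and Cdkn1c were not among the promoters used. The other 8 genes had 16 windows, of which 1, that of Dlk1, held the motif, as did 3.65% of all 32851 promoters. Dlk1 held it at 2 places, the first bases lying 87 and 67 bases before the start, and 0.110% of all promoters held it at 2 or more. The shorter motif TGTTTA or TAAACA, which the longer contains, was in 2 of 16 windows (Dlk1 and 1 of Meg3) and in 13.4% of all promoters. The cell cycle element TTTGAA or TTCAAA was in 1 window of Meg3 and in 17.9% of all promoters. A match is a stretch of letters and not a measured binding site, and Dlk1 had no reads in either genotype. The 250 bases before the start of Dlk1 (RefSeq, GRCm38.p6, chr12:109452573-109452822, plus strand) are shown with both matches in capitals.
Dlk1: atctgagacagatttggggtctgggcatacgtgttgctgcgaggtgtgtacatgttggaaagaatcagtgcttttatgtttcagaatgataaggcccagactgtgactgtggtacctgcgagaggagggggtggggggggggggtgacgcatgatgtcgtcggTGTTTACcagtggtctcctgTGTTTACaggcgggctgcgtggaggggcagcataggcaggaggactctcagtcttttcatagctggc

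The reads of the genes that share a cluster with the 10 were then set beside them. These neighbours were chosen from general knowledge after the values of the 10 genes were known. Beside Igf2r, Airn, the noncoding RNA that silences the father's copy of the cluster, had 71 reads in Foxm1 HET replicate 1 and 0 elsewhere. Slc22a3, an organic cation transporter of the same cluster, had 414, 15 and 11 reads across WT, against 7938, 500 and 8613 across Foxm1 HET. Its genotypes did not overlap, with a log2 fold change of 4.61 (SE 2.32, edgeR adjusted p = 0.810).

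Near Cdkn1c, the noncoding RNA Kcnq1ot1 had 3059, 9 and 4305 reads across WT, against 1805, 1388 and 10747 across Foxm1 HET. Its lowest library, WT replicate 2, was the WT library in which Cdkn1c was high. Foxm1 HET replicate 1, in which Cdkn1c was highest with 1524 reads, had 1805 reads of Kcnq1ot1. A relation between these genes was not tested. Phlda2, a growth-limiting gene of the same cluster, had 22, 5543 and 1 reads across WT, against 12, 1 and 1 across Foxm1 HET. Its log2 fold change of -8.92 (SE 3.36, edgeR adjusted p = 0.437) rested on WT replicate 2, without which it was -1.69 (edgeR adjusted p = 0.951). Slc22a18 had 0, 0 and 1 reads across WT, against 831, 1 and 134 across Foxm1 HET, which are the same 2 libraries that held Igf2 and Meg3. Cd81, a tetraspanin, had 825 to 2577 reads in the 6 libraries.

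In the cluster of Meg3, the noncoding RNA Rian had 896 reads in WT replicate 3, where Meg3 had 0, and 6 in Foxm1 HET replicate 3. Rtl1, Mirg and Dio3 were at 0. Near Ndn, Magel2, Mkrn3, Snrpn and Snurf were at 0 in all 6 libraries, and Peg12 had 12 reads in WT replicate 1 alone. Ube3a, a ubiquitin ligase of that region, had 197, 3072 and 373 reads across WT, against 141, 79 and 72 across Foxm1 HET (log2 fold change -3.26, SE 2.76, edgeR adjusted p = 0.985). Ins2, Zim1, Usp29, Ddc and Slc22a2, which neighbour Igf2, Peg3, Grb10 and Igf2r, were at 0 in all libraries.

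**Figure D5:**
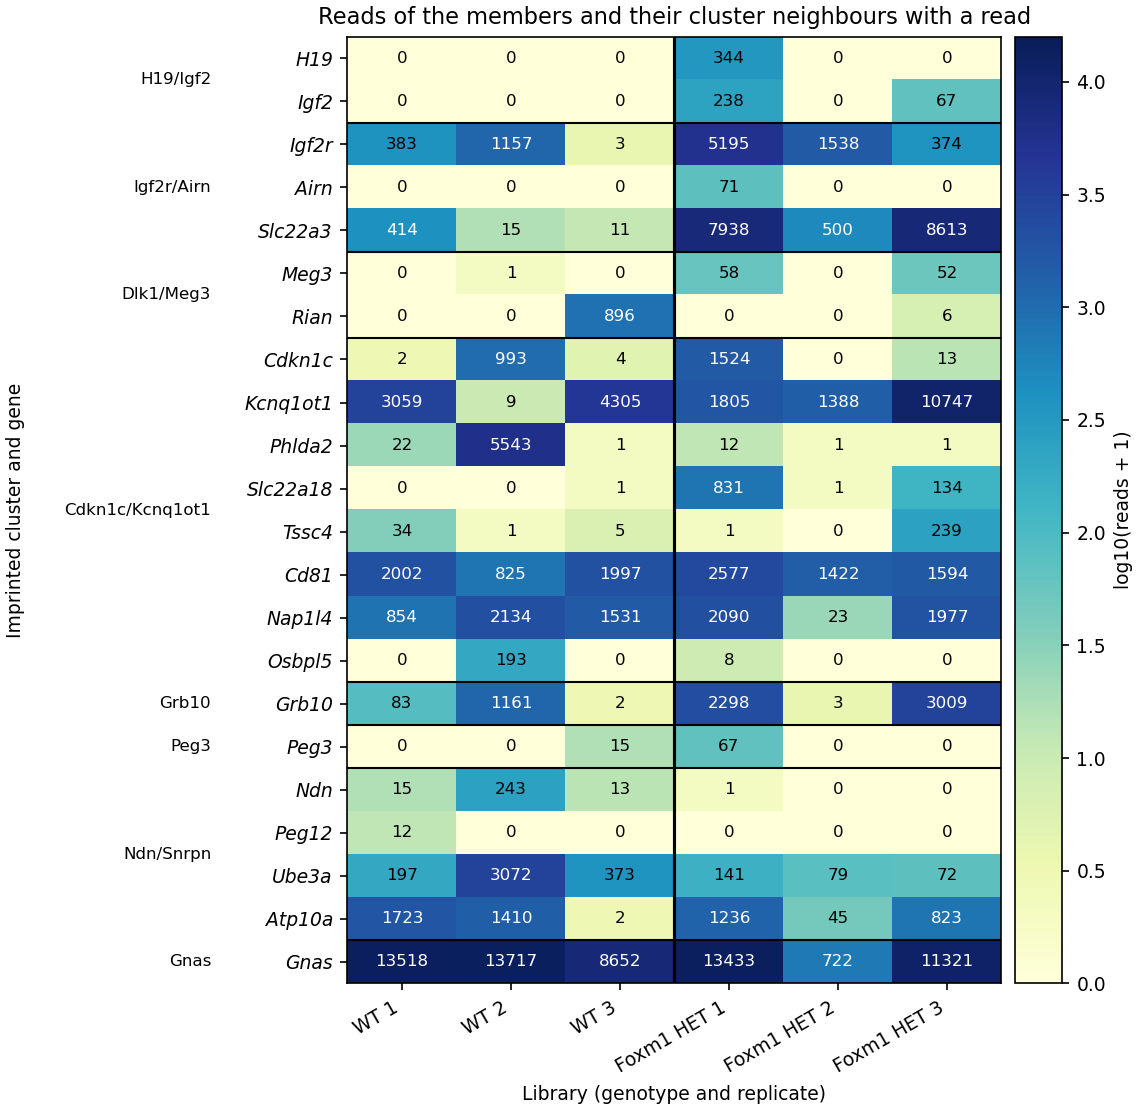
The number and shade of each cell give the reads (shade as log10 of reads + 1) of a gene (rows, grouped by imprinted cluster) in 1 library (columns). Genes of the clusters with 0 reads in all libraries are left out. Meg3 was read in Foxm1 HET replicates 1 and 3, while its neighbour Rian was high in WT replicate 3.

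Over the list of 65 other imprinted genes, 26 had 0 reads in all libraries and 24 were tested. In Foxm1 HET 12 were higher and 12 lower, the median log2 fold change being -0.05. At an unadjusted p under 0.05, 1 was higher (Slc22a3) and 1 lower (Phlda2), against 6.03% of all genes in either direction, and none passed after adjustment. By mean TPM the highest of the list were Phlda2 at 127, Cd81 at 116 and Phactr2 at 107. Phactr2 had 10600, 18416 and 2475 reads across WT, against 5395, 8102 and 8695 across Foxm1 HET, with a log2 fold change of 0.14 (SE 1.46). Next by p were Copg2 at 2.45 (edgeR adjusted p = 0.976) and Sgce at -4.01 (edgeR adjusted p = 0.982).

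Of 17 genes that maintain imprints, 13 were tested, 5 higher and 8 lower in Foxm1 HET, the median log2 fold change being -0.63 and none with an unadjusted p under 0.05. The smallest p belonged to Setdb1, a histone H3 lysine methyltransferase, at 4.49 (edgeR adjusted p = 0.850). It was followed by Trim28, the corepressor that recruits it, at -2.62 (adjusted p = 0.941), the DNA methyltransferase Dnmt3a at -1.66 and the zinc finger protein Zfp445 at -1.56, both with an adjusted p of 0.998. Of 24 genes of Gs and cAMP signalling, the pathway that Gnas serves, 20 were tested, 11 higher and 9 lower, with a median of 0.37. The 2 with an unadjusted p under 0.05 were both higher in Foxm1 HET, against 3.44% of all genes tested in that direction. Adcy7, an adenylyl cyclase, had 821, 1139 and 59 reads across WT, against 1655, 19096 and 3615 across Foxm1 HET (log2 fold change 5.08, edgeR adjusted p = 0.279). Prkaca, the catalytic subunit of protein kinase A, had 13, 8 and 52 reads across WT, against 0, 2658 and 983 across Foxm1 HET (log2 fold change 6.69, edgeR adjusted p = 0.506). Without Foxm1 HET replicate 2, in which both were highest and Gnas was lowest, these were 1.13 and 3.12, and neither had an unadjusted p under 0.05. Ric8b, a chaperone of Gs alpha subunits, was at 2.995 (adjusted p = 0.938), and Gnal, the olfactory relative of Gnas, was at -3.04 (adjusted p = 0.961).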

How the data were processed

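Per the labels and the study's methods, RNA from sorted LT-HSCs was sequenced as single 50 base reads and aligned to GRCm38 with STAR 2.7.2b. The labels name a TruSeq stranded kit with Ribo-Zero and the methods a Clontech kit. The counting program and its use of strand, of multimapped reads and of duplicates are not given in the sources used here. The deposited files are a table of counts of reads for 27179 genes and a normalized table of log2 values for 12179 genes. By its values the table ranks genes as counts per length and is quantile normalized, and each of its genes reached a TPM of at least 1 in a library. Libraries held 14573002 to 25798509 counted reads and were grouped by the genotype label. Symbols came from the normalized table and, for other genes, from RefSeq (GRCm38.p6), so that 94.1% of identifiers were named.

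The count test was edgeR 4.0.16 under R 4.3.3 (default filter on low counts, TMM scaling, quasi-likelihood test, Benjamini-Hochberg adjustment over the 8195 genes kept). Standard errors were obtained as the absolute change over the root of F. Log2 CPM used a prior count of 2. Log2 CPM of single genes were compared with a two-sided exact permutation test. They were TMM-scaled for genes tested with edgeR and scaled to library size for the others. Ratios have 95% exact intervals for counting error only. Alternatives were 3 other scalings (RLE, upper-quartile, library size), no filter, at least 10 counts in every library, a replicate block, each library left out, DESeq2 1.42.0, limma-voom and limma 3.58.1 on the normalized table. Fits were tested on simulated data.

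The 10 genes and all lists were chosen with earlier results of these data known. The genes named are the 10, up to 4 per list with the smallest unadjusted p, the 3 other imprinted genes with the highest mean TPM, and the 3 genes most correlated with Gnas. Cluster neighbours were chosen after values were seen.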

Additional observations from a re-analysis of the deposited data

How the results depend on the processing

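The median standard error of a log2 fold change over all genes was 2.59, which sets the size of difference that these libraries could show, and 5 of the 10 genes were too low to test. Beside the 27 genes with an adjusted p under 0.05 in edgeR, the count was 10 with RLE, 43 with upper-quartile and 7 with library-size scaling, 36 without the filter, 0 with at least 10 counts in every library (157 of 2516 genes had an unadjusted p under 0.05), 194 with DESeq2, 4 with limma-voom, 1 with limma on the normalized table, and 0 to 29 with a library left out (0 without WT replicate 1, WT replicate 2 or Foxm1 HET replicate 2, and 1 without WT replicate 3).

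The 1 imprinted gene of the 10 with an unadjusted p under 0.05 (Ndn) was 0 without the filter, with at least 10 counts in every library, with DESeq2, limma-voom and the normalized table, and 0 to 2 with a library left out, the 2 being Igf2 and Meg3 without Foxm1 HET replicate 2. Those 2 genes, at 0 or 1 read in each WT library, passed the filter there only through the Foxm1 HET group where they are high, so their p values are no support for a difference. The same holds for Ndn, which passed the filter only through the WT group. The genes whose genotypes did not overlap were 1 by library size and 1 with at least 10 counts in every library, and 2 to 5 with a library left out (5 without Foxm1 HET replicate 2). Those 5 include Igf2 and Meg3, which passed the filter there only through the Foxm1 HET group. The share of all genes was not counted for the fits with a library left out, and with fewer libraries the genotypes stay apart more easily. These counts are thus no support for a difference. The 2 other imprinted genes were 1 with limma-voom and 1 on the normalized table, 3 without the filter, and 0 to 3 with a library left out (0 without WT replicate 2 and 3 without Foxm1 HET replicate 2). The log2 fold change of Cdkn1c turned positive at 0.40 with upper-quartile and 0.49 with library-size scaling, 0.29 with the replicate block, and from -6.30 to 6.24 with a library left out. The cause was not tested. No adjusted p of the 5 tested genes was under 0.05 in the alternatives that gave one. DESeq2 gave no p for Ndn and Cdkn1c, and with at least 10 counts in every library Gnas alone of the 5 was tested.

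No pairing by replicate number was seen: deviations from the genotype means correlated at 0.016, -0.025 and -0.069 within numbers 1, 2 and 3. With so wide a spread between libraries, these values cannot exclude that the libraries were paired. With the replicate block there were 0 genes with an adjusted p under 0.05 and 108 with an unadjusted one, 0 of the 10 imprinted genes and 1 of the others had an unadjusted p under 0.05.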
